A study of Rattus norvegicus with 6 samples.

Results

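The genes described here are those of DNA mismatch repair: the mismatch-recognition subunits Msh3 and Msh6, the MutL subunits Mlh3, Pms1 and Pms2, and the exonuclease Exo1. They were read in the renal cortex of rats given N-nitrosodimethylamine (NDMA), a nitrosamine whose oxidised form methylates DNA. Members were the array probes that target a RefSeq transcript of 1 of these 6 genes, which gave 10 of the 61657 non-control probes and covered 5 of the 6 genes. In all, 15284 genes of the array could be named from RefSeq. Msh6 had no probe matched in this way and is not analysed here. All 10 probes were well above background on all 6 arrays, and all passed the detection filter, as did 43118 of the 61657 probes.

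The animals were 6 male Sprague-Dawley (Crl:CD(SD)) rats, whose renal cortex RNA was arrayed; they were bought at 5 weeks of age and kept on a basal diet. The control group was 3 rats given water for 4 weeks, and the treated group was 3 rats given NDMA at 4 mg/kg/day for 4 weeks. Each rat had its own 1-colour Agilent array. No other treatment or genotype is given in the labels, and whole cortex was measured, so fewer cells of a type and less RNA per cell cannot be told apart.

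Mismatch repair corrects bases that were paired wrongly when DNA was copied. Msh6 and Msh3 each belong to a MutS heterodimer that finds the error: the form with Msh6 reads base mismatches and small loops, and the form with Msh3 reads larger loops. A MutL heterodimer follows. Pms2 is the MutL subunit that nicks the new strand, Mlh3 acts in meiotic crossing over and in part of mismatch repair, and the role of Pms1 is less clear. Exo1 then removes the faulty stretch, and the gap is filled and sealed by the replication machinery. The pathway also reads the mispairs formed by methylated guanine, the lesion that methylating agents such as NDMA are known for, and can pass the signal to the replication checkpoint.

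Between 43016 and 46248 probes per array were well above background. The 3 controls and NDMA animal 1 shared slide 1, and NDMA animals 2 and 3 shared slide 2, so on slide 2 the treatment had no control. The 11 measured genes of a renal cortex marker list, such as the proximal tubule genes Lrp2 and Slc34a1, were well above background on all arrays, and their values by group stand beside those of the dividing-cell and leukocyte lists. Signals are given below as a percent of the 75th percentile of the animal's own array. Differences are NDMA minus control on the log2 scale with the moderated standard error (SE) of limma and n = 3 per group, and p-values are limma's, adjusted over all 43118 probes with a threshold of 0.05. Levels are not compared between probes, because probes bind their targets unequally.

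None of the 10 mismatch repair probes passed that threshold. In limma 2.99% of all probes passed, 2.50% higher and 0.485% lower after NDMA (1080 and 209 probes, against 943 and 516 with normexp and the 75th percentile). At an unadjusted p under 0.05 limma counted 1 of the 10 member probes, against 18.3% of all probes. Exo1 was nearest to a call: its brighter probe was 1.85-fold higher in NDMA-treated rats. The 8 probes of Msh3, Mlh3, Pms1 and Pms2 had log2 differences between -0.20 and 0.17. The groups did not overlap at 2 member probes, 1 of Exo1 and 1 of Mlh3, against 26.9% of all probes tested. The median log2 difference was 0.07 over the 10 member probes and -0.04 over all probes. Over the 8 member probes other than those of Exo1 the median was 0.01, with 4 above 0.

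**Figure D1:**
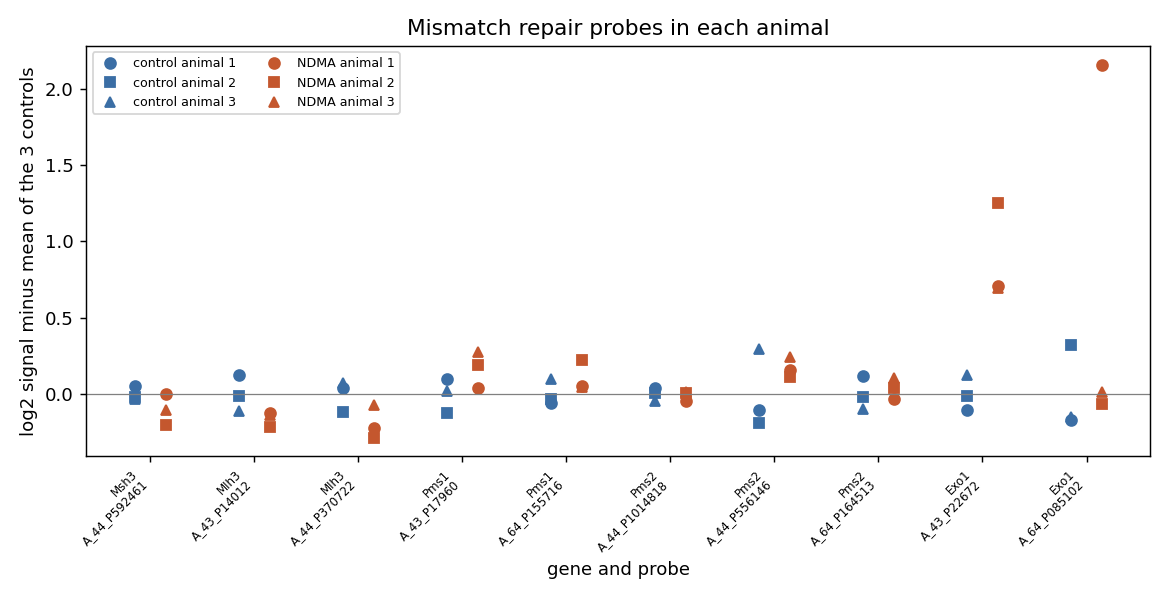
Log2 signal of each mismatch repair probe minus the mean of the 3 controls (vertical axis), for each of the 10 probes (horizontal axis), with blue points for control animals and orange points for NDMA animals. Points of 8 probes lie near 0 in both groups, Exo1 probe A_43_P22672 is raised in the 3 NDMA animals, and Exo1 probe A_64_P085102 stands apart in NDMA animal 1 only.

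Exo1, the exonuclease of the pathway, was read by 2 probes of 1 transcript (NM_001107198), and they gave different pictures. The RefSeq promoter table (build GRCr8) holds the sequence ahead of its annotated start. The 250 bases before that start are shown for Exo1, the member with the largest difference, and for Pms2, whose brightest probe had a difference nearest to 0. The Exo1 window is chr13:90341768-90342017 on the plus strand and the Pms2 window chr12:15814721-15814970 on the minus strand, each written along its own gene. Capitals mark the CCAAT box, searched as CCAAT, and the GC box, searched as GGGCGG, on both strands.
Exo1: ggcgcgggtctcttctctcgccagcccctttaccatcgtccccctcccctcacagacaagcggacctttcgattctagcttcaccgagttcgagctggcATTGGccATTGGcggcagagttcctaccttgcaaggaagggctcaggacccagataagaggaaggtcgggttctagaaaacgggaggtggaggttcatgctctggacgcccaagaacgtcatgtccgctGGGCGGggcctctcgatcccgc
Pms2: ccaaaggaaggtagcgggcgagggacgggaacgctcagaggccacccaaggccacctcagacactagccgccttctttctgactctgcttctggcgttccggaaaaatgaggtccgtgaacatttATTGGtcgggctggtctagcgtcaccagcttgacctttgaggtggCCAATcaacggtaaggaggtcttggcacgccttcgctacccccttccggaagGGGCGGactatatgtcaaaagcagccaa
Both windows held 2 CCAAT boxes and 1 GC box. In Exo1 the CCAAT boxes lay 151 to 147 and 144 to 140 bases before the start, and in Pms2 they lay 125 to 121 and 80 to 76 bases before it. Windows of 27457 genes were searched, of which 34.3% held a CCAAT box and 32.4% a GC box. An E2F site, searched as TTTCCCGC, TTTCGCGC, TTTGCCGC or TTTGGCGC on both strands, was found in 1.81% of the windows. None of those letters occurred in the windows of Msh3, Msh6, Mlh3, Pms2 or Exo1, and Pms1 had no entry. The same held for a CHR element, searched as TTTGAA on both strands, which 16.0% of all windows held. A match is only a description of the letters, and no match says only that they are not in this window.

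At Exo1 probe A_43_P22672 the signal was 9.97%, 10.65% and 11.7% of the array's 75th percentile in controls 1, 2 and 3. In NDMA animals 1, 2 and 3 it was 17.6%, 25.6% and 17.4%. All 3 treated animals lay above all 3 controls, and NDMA animal 2 was the highest. The log2 difference was 0.88 ± 0.17 SE (95% interval 0.48 to 1.29, 1.85-fold, 1.39 to 2.45), with an adjusted p of 0.0520 and an unadjusted p of 0.00159. By p-value the probe ranked 1321 among 43118, where 1289 passed. The probe is therefore reported as not passing.

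The call depended on the setting. Over 19 alternative settings the difference stayed between 0.67 and 0.98, and the adjusted p ran from 0.0268 to 0.4003. It passed in 5 of them: with a trended and robust variance (0.0268), with both normexp background corrections (0.0411 and 0.0334), when only probes detected on every array were tested (0.0474), and with the slide as a random block (0.0429). The random block used a within-slide correlation of -0.05 and left the difference at 0.90, so it did not adjust for a shift between slides. The highest adjusted p was that with the slide as a fixed block. There, and with slide 1 by itself, NDMA animal 1 is the only treated animal set against the controls, and the difference was 0.71. Without NDMA animal 2, the highest, it was 0.70 with an adjusted p of 0.0540.

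**Figure D2:**
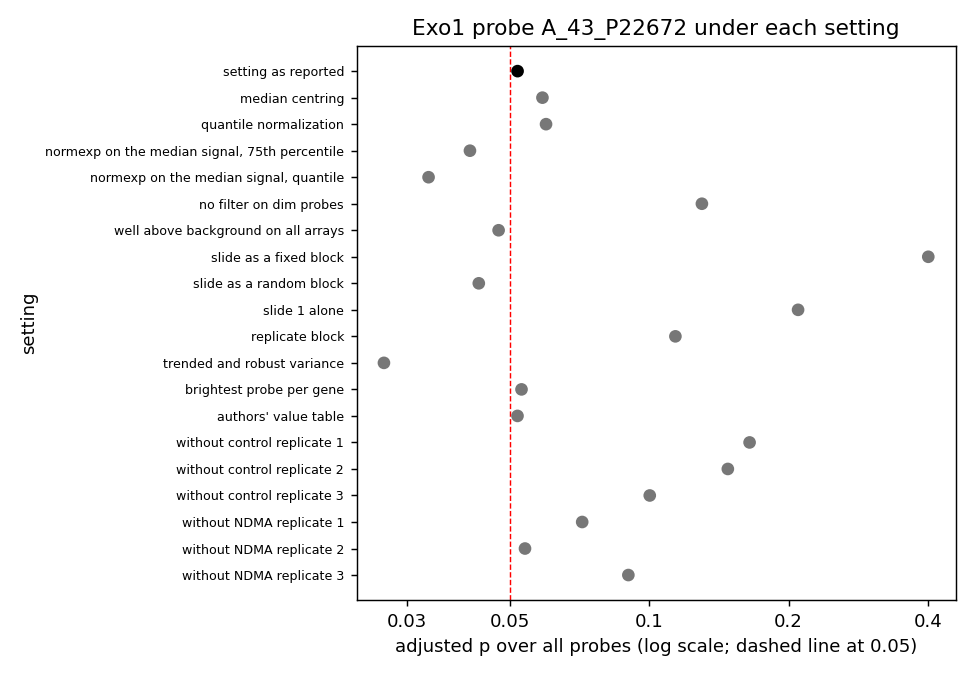
Adjusted p over all probes (horizontal axis, log scale) for Exo1 probe A_43_P22672 under the setting as reported (black point) and each alternative (grey points, vertical axis). The dashed line is the threshold of 0.05, and 5 of the 19 alternatives lie to its left.

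The dimmer Exo1 probe, A_64_P085102, was high in 1 animal only. Its signal was 2.61%, 3.65% and 2.64% of the array's 75th percentile in controls 1, 2 and 3, and 13.1%, 2.80% and 2.96% in NDMA animals 1, 2 and 3. NDMA animals 2 and 3 lay within the range of the controls. The log2 difference was 0.70 ± 0.59 SE (95% interval -0.73 to 2.13, adjusted p = 0.555), and it was -0.02 without NDMA animal 1. With the slide as a fixed block, and on slide 1 alone, NDMA animal 1 is the only treated animal set against the controls, and the difference was 2.16 (adjusted p = 0.0556 and 0.117). With normexp it was 0.17 (75th percentile) and 0.31 (quantile). The spot of NDMA animal 1 had a median intensity of 164 over a local background of 30, against 62 to 79.5 over 32 to 45 on the other arrays, and it carried no outlier flag. The 2 probes also ordered the treated animals differently, since A_43_P22672 was highest in NDMA animal 2. Which of the 2 probes follows the Exo1 transcript was not tested, and probe sequences were not used here.

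**Figure D3:**
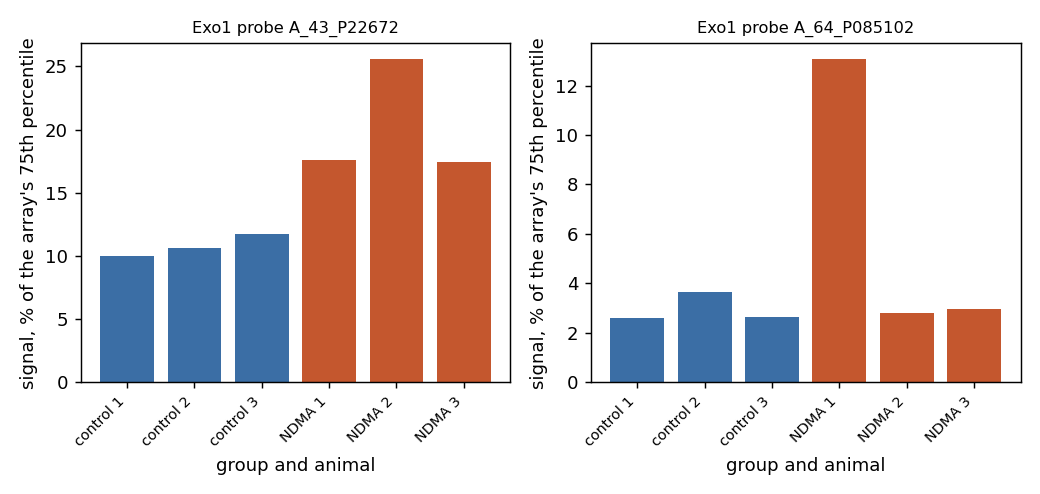
Signal of the 2 Exo1 probes as a percent of the 75th percentile of the array (vertical axis, from 0) in each of the 6 animals (horizontal axis; blue, control; orange, NDMA). At A_43_P22672 all NDMA bars, 17.4% to 25.6%, exceed all control bars, 9.97% to 11.7%; at A_64_P085102 only NDMA animal 1, at 13.1%, does.

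Msh3, the subunit that reads larger loops, was measured by probe A_44_P592461 of NM_001191957. Its signal was 96.8%, 92.3% and 91.6% of the array's 75th percentile in controls 1, 2 and 3, and 93.5%, 81.1% and 87.0% in NDMA animals 1, 2 and 3. NDMA animals 2 and 3 lay below all controls and NDMA animal 1 lay among them. This gave a log2 difference of -0.10 ± 0.09 SE (95% interval -0.31 to 0.10, adjusted p = 0.550). Both animals below the controls were those on slide 2, and in NDMA animal 1 alone the difference from the control mean was -0.0015. What the slide contributed cannot be told apart from the treatment on slide 2.

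Mlh3, a MutL subunit, was read by 2 probes of NM_001108043, and both were slightly lower after NDMA without passing. Probe A_43_P14012 gave 354%, 322% and 301% of the array's 75th percentile in controls 1, 2 and 3, and 298%, 280% and 296% in NDMA animals 1, 2 and 3. All treated animals lay below all controls. Groups that do not overlap with NDMA lower made up 16.0% of all probes tested. The difference on the log2 scale was -0.16 ± 0.09 SE (95% interval -0.38 to 0.06, adjusted p = 0.398).

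The second Mlh3 probe, A_44_P370722, gave 12.8%, 11.5% and 13.1% in the controls and 10.68%, 10.2% and 11.8% in NDMA animals 1, 2 and 3, on the same scale. Here the groups overlapped, since NDMA animal 3 exceeded control 2. This probe had a log2 difference of -0.20 ± 0.10 SE (95% interval -0.43 to 0.04, adjusted p = 0.340). Both Mlh3 differences were below 0 in every alternative in which the probe was fitted.

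Pms1, the MutL subunit whose part in repair is least settled, was read by 2 probes of NM_001009535 with small differences above 0. Probe A_43_P17960 gave 17.9%, 15.4% and 17.0% of the array's 75th percentile in controls 1, 2 and 3, and 17.2%, 19.1% and 20.2% in NDMA animals 1, 2 and 3. NDMA animals 2 and 3, both on slide 2, exceeded all controls, and NDMA animal 1 lay within their range. On the log2 scale the difference was 0.17 ± 0.10 SE (95% interval -0.08 to 0.41, adjusted p = 0.422), and it was 0.04 on slide 1 alone. Probe A_64_P155716 gave 67.7%, 69.0% and 75.6% in the controls and 73.4%, 82.5% and 73.0% in NDMA animals 1, 2 and 3. Only NDMA animal 2 lay above all controls there. On the log2 scale this was a difference of 0.11 ± 0.09 SE (95% interval -0.11 to 0.33, adjusted p = 0.563). Both Pms1 differences were above 0 in every alternative in which the probe was fitted.

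Pms2, the MutL subunit that nicks the strand to be removed, was read by 3 probes of NM_001105908, and its direction was not settled. The brightest, A_44_P1014818, gave 80.9%, 78.9% and 76.0% of the array's 75th percentile in controls 1, 2 and 3, and 76.2%, 78.8% and 79.4% in NDMA animals 1, 2 and 3. The 6 animals overlapped fully. The log2 difference was -0.01 ± 0.07 SE, and its 95% interval, -0.19 to 0.17, was the narrowest of the 10 probes (adjusted p = 0.962).

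Pms2 probe A_64_P164513 gave 45.9%, 41.7% and 39.6% in the controls and 41.4%, 43.4% and 45.6% in NDMA animals 1, 2 and 3, a log2 difference of 0.04 ± 0.09 SE (adjusted p = 0.856). Probe A_44_P556146, the dimmest of the 3, gave 4.67%, 4.39% and 6.17% in the controls and 5.60%, 5.41% and 5.93% in NDMA animals 1, 2 and 3. Control 3 was the highest of all 6 animals at that probe. The log2 difference was 0.17 ± 0.14 SE (95% interval -0.17 to 0.51, adjusted p = 0.554). Each of the 3 Pms2 probes changed sign under at least 1 alternative setting, to values between -0.11 and 0.08. At A_44_P556146 the difference was 0.32 without control 3 (unadjusted p = 0.0190 and adjusted p = 0.205 in limma) and 0.07 without control 2.

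For the 8 probes other than those of Exo1, the 95% intervals together ran from -0.43 to 0.51, that is from 0.742-fold to 1.42-fold. A p above the threshold does not show that the groups were alike. Adjusted p-values of these 8 probes ran from 0.340 to 0.962.

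**Figure D4:**
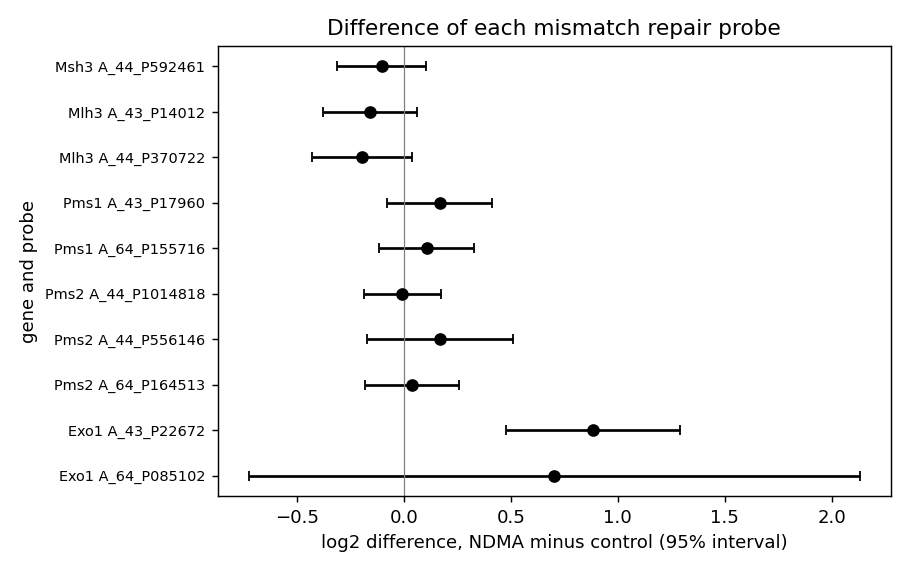
Log2 difference, NDMA minus control (horizontal axis), with its 95% interval from limma, for each of the 10 mismatch repair probes (vertical axis), n = 3 animals per group. The intervals of 9 probes cover 0, and that of Exo1 probe A_43_P22672 runs from 0.48 to 1.29.

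Other genes of the pathway were taken from a list of 24, which holds the clamp, its loader, the gap-filling polymerase, the ligase and accessory genes. Of these, 20 genes had a tested probe, and in limma 0 of their 35 probes passed the threshold, with 7 at an unadjusted p under 0.05 (20% of the list's probes, against 18.3% of all probes). The median log2 difference was 0.06. Groups did not overlap at 13 probes, 10 higher and 3 lower after NDMA, or 37.1% of the list's probes. Across all probes tested the shares were 26.9%, with 10.9% higher and 16.0% lower.

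Pold1, the catalytic subunit of DNA polymerase delta, had the smallest p of this list. Its signal was 56.6%, 58.5% and 63.5% of the array's 75th percentile in the controls and 81.9%, 112% and 84.4% in NDMA animals 1, 2 and 3. All treated animals lay above all controls, and NDMA animal 2 was the highest, as at Exo1 probe A_43_P22672. The log2 difference was 0.63 ± 0.14 SE (adjusted p = 0.0797), and it passed with a trended and robust variance and with normexp and quantile normalization (adjusted p = 0.0376 and 0.0493). The small subunit gene Pold4 had a difference of -0.32 ± 0.11 (adjusted p = 0.212), chosen after its values were seen to show the other direction.

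Rpa2, a subunit of the single-strand binding protein that covers the gap, gave 90.0%, 97.2% and 95.9% in the controls and 119%, 144% and 116% in NDMA animals 1, 2 and 3 (difference 0.41 ± 0.11 SE, adjusted p = 0.122). Pcna, the sliding clamp, differed by 0.28 ± 0.09 at its brighter probe (adjusted p = 0.194) and by 0.19 ± 0.08 at the other (adjusted p = 0.299). The 2 probes of Lig1, the ligase that seals the nick, differed by 0.33 and 0.27. The 10 probes of the clamp loader genes Rfc1 to Rfc5 ran from -0.08 to 0.30, with 8 above 0. The meiotic MutS homologues Msh4 and Msh5 had 4 tested probes, from -0.23 to 0.77, of which the Msh5 probe at 0.77 ± 0.58 was high in NDMA animal 1 only (12.0%, against 2.14% to 3.30% in the other 5 animals).

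In the checkpoint that mismatch repair can signal to, 9 of 14 listed genes were tested, with 12 probes, and 0 passed in limma. Their median log2 difference was 0.17. Atr, Topbp1, Clspn, Rad9a and Trp53bp1 had no matched probe, so these counts do not cover them. The count at an unadjusted p under 0.05 was 1 of 12, where 18.3% of all probes lay under it. Chek1, the kinase of the replication checkpoint, had the smallest p, with a difference of 0.68 ± 0.19 SE (adjusted p = 0.137). Atm, the kinase that responds to double-strand breaks, differed by 0.26 ± 0.13 at the probe with its smaller p (adjusted p = 0.331).

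Genes of dividing cells rose in the same animals, and their part in the Exo1 difference was not tested. Over all probes 2.50% passed higher and 0.485% lower, the shares beside which the counts of these lists stand. The S-phase list had 41 tested probes of 19 genes, and 14 probes passed higher and 0 lower (median log2 difference 0.64). The mitosis list had 19 tested probes of 13 genes, and 12 probes passed higher and 0 lower (median 1.27). The summed signal of the mitosis genes, in units of the array's 75th percentile, ran from 4.83 to 5.66 in the controls and from 9.81 to 16.2 after NDMA, and that of the S-phase genes from 20.4 to 21.5 and from 26.1 to 34.0. In NDMA animals 1, 2 and 3 the mean over the S-phase genes was 0.60, 1.03 and 0.67 above the controls on the log2 scale, the mean over the mitosis genes 1.04, 1.67 and 1.11, and Exo1 probe A_43_P22672 0.71, 1.25 and 0.70. NDMA animal 2 was the highest in all of these. In summed signals, here and below, the brightest genes weigh most.

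Among the S-phase genes, the replicative helicase subunit Mcm3 differed by 1.62 ± 0.16 SE at the probe with its smallest p (adjusted p = 0.00848), and the S-phase cyclin Ccne1 by 1.69 ± 0.19 (adjusted p = 0.0107). E2f1, a transcription factor of the entry into S phase, and Cdc6, which loads the helicase, differed by 0.94 ± 0.12 and 1.39 ± 0.19. Among the mitosis genes Cep55, Ccnb2, Ube2c and Pbk differed by 1.74, 1.60, 1.60 and 1.30. The proliferation marker Mki67 had no matched probe. With the slide as a fixed block 0 probes of either list passed. Without controls 1, 2 and 3 the S-phase count was 3, 7 and 6, and without NDMA animal 3 it was 4. The mitosis count was 2, 3 and 4 without controls 1, 2 and 3, and 4 without NDMA animal 3.

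**Figure D5:**
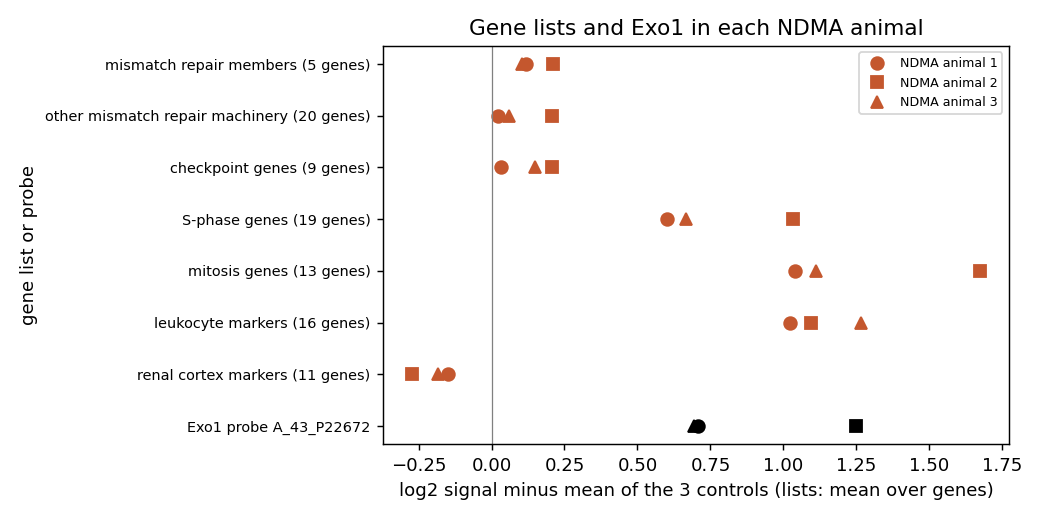
Log2 signal minus the mean of the 3 controls (horizontal axis) in NDMA animals 1 to 3 (marker shapes), as the mean over the genes of each list, each read by its brightest probe (orange), and for Exo1 probe A_43_P22672 (black). The mismatch repair members, the rest of the pathway and the checkpoint genes lie between 0.02 and 0.21, the S-phase, mitosis and leukocyte lists between 0.60 and 1.67, and the renal cortex markers between -0.27 and -0.15. The mean over the mismatch repair members includes this Exo1 probe.

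Markers of leukocytes, the other cells that whole cortex can hold, also rose. Of 26 tested probes of 16 leukocyte markers, 20 passed the threshold higher and 0 lower, against 2.50% and 0.485% of all probes. Of the 26 differences, 25 were above 0. The summed signal ran from 20.4 to 24.4 in the controls and from 52.3 to 62.5 after NDMA, in units of the array's 75th percentile. Of these markers C1qb had the highest control mean (3.43 on the log2 scale), so it weighs most in the sum. Cd247, a chain of the T cell receptor complex, differed by 1.96 ± 0.13 SE (adjusted p = 0.00533), the T cell kinase Zap70 by 1.20 ± 0.11, the macrophage protein Cd68 by 1.498 ± 0.14 and the complement gene C1qb by 1.33 ± 0.12. The means over these markers were 1.02, 1.09 and 1.26 above the controls in NDMA animals 1, 2 and 3, so the highest animal was NDMA animal 3. None of the 16 markers was at background on all arrays. The leukocyte count was 0 with the slide as a fixed block, 11 without control 1, and 13 without NDMA animal 2 or 3. The part of leukocytes in the Exo1 difference was not tested.

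Markers of the cortex itself lay mostly on the lower side after NDMA. Of 23 tested probes of 11 renal cortex markers, 19 had a difference below 0, with a median of -0.25 against -0.04 over all probes, and the median stayed below 0 in all 19 alternatives (-0.30 to -0.11). The summed signal ran from 1664 to 1830 in the controls and from 1353 to 1480 after NDMA, in units of the array's 75th percentile. In limma 1 probe passed and was lower, against 0.485% of all probes: Lrp2, the endocytic receptor megalin of the proximal tubule, at probe A_44_P1047441 with a difference of -0.57 ± 0.10 SE (adjusted p = 0.0439). That probe passed in 8 of the 19 alternatives, and not with quantile normalization (0.0652), with no filter (0.120), with the slide as a fixed block (0.364), on slide 1 alone (0.295), with the replicate block (0.136) or without any 1 of the 6 animals (0.0577 to 0.141). The second Lrp2 probe differed by -0.55 ± 0.13 (adjusted p = 0.0945), and the 2 probes of the phosphate transporter Slc34a1 by -0.40 and -0.26, with neither passing. The part of the cortex markers in the mismatch repair values was not tested.

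For each member, read by its brightest probe, the genes with the most similar signal over the 6 arrays were taken from 20385 probes with a RefSeq symbol that were well above background on all arrays. Such correlations over 6 animals in 2 groups are a description, and the arrays and groups are shared by all genes. Each r is the highest of a search, and Msh3 and Pms2, whose groups overlapped, also reached 0.993 and 0.995. Exo1, read here only by probe A_43_P22672, was most like Kif20a, a kinesin of mitosis (Pearson r = 0.999). Tes and Pold1 came next (both 0.998). Kif20a itself rose, by 1.30 ± 0.22 SE (adjusted p = 0.0367), whereas Tes and Pold1 did not pass. Mlh3 was most like Ino80d, Eci3 and Aldh9a1 (r = 0.999, 0.999 and 0.996), and Msh3 most like Nucb1, Dmac2 and Capzb (0.993, 0.992 and 0.991). Pms1 was most like Npat, Dbf4 and Snn (0.992, 0.992 and 0.991), and Pms2 most like Fgfbp3, Slc25a28 and Elovl2 (0.995, 0.989 and 0.977). None of the genes listed for Mlh3, Msh3, Pms1 and Pms2 passed the threshold in limma.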

How the data were processed

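Cy3-labelled cRNA from 6 rats, 3 per group by the sample titles, was hybridised to 1-colour Agilent arrays, and each replicate was its own animal according to the series' design text. Spots were read by the authors with Agilent Feature Extraction (10.7 per the submitters' processing notes, 10.7.1.1 per the file headers). Per the file headers, the processed intensity was corrected for background and for a spatial trend within each array and not scaled across arrays, and the deposited median and background intensities are raw. The authors' value table was a ratio on a linear scale, equal to the processed intensity divided by its array's 75th percentile (largest log2 difference 0.00174 over values above 0.1). Its column medians were 0.112, 0.110 and 0.114 in the controls and 0.115, 0.112 and 0.114 after NDMA. Scale and direction are thus known, and no centring was found.

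Log2 processed signals were reduced by the 75th percentile of the 61657 non-control probes of each array, which was 993 to 1053 on slide 1 and 1310 and 1299 on slide 2. Outlier-flagged spots were set missing (18 values, none of a member). A probe was kept if each of the 3 arrays of 1 group or the other found it well above background, 43118 in all. Names came from RefSeq transcripts of GRCr8 without versions: 27348 of 29123 probes with an NM accession matched. The array annotation is of another build, so probes and transcripts are given without coordinates, and those of the 2 promoter windows are of GRCr8. Groups were compared per probe with limma 3.58.1 in R 4.3.3 (two-sided, Benjamini-Hochberg over 43118 probes). The fit was also run on simulated data with independent noise and no slide effect, so that run does not bear on the slides. The number of arrays limits the precision. An exact permutation test of 3 against 3 cannot go below p = 0.1, so none is given. Members and lists were chosen with earlier results of these data known. Named genes were all member probes, Pcna, Mki67, up to 4 genes per list past the threshold by smallest p (otherwise 2), and the 3 most similar genes per member. Pold4, Lig1, Slc34a1, the Rfc genes, Msh4, Msh5 and the promoter motifs were chosen after values or sequences were seen. Same-numbered animals were not treated as pairs, because no pairing is stated. The correlations of their deviations were 0.03, -0.05 and 0.01 over all probes, which with 3 animals per group cannot show whether they were paired. Alternatives covered scaling, background, filter, slide, replicate block, variance, probe choice and each animal left out.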

Additional observations from a re-analysis of the deposited data

How the results depend on the processing

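None of the Msh3, Mlh3, Pms1 and Pms2 probes passed in any of the 19 alternatives. The count of member probes past the threshold was 1, Exo1 probe A_43_P22672, with either normexp correction, with only probes detected on every array, with the slide as a random block and with a trended and robust variance, and 0 otherwise, also without each animal. The other pathway genes had 1 call, Pold1, with normexp and quantile and with a trended and robust variance, and 0 otherwise. Reversed signs were small. Pms2 probe A_44_P1014818 was at 0.066 and 0.079 with normexp (75th percentile and quantile) and between -0.032 and 0.012 without 1 animal. A_44_P556146 was at -0.11 with normexp and the 75th percentile. A_64_P164513 was at -0.031 with the slide as a fixed block and on slide 1 alone, and between -0.011 and 0.096 without 1 animal. Exo1 A_64_P085102 lay between -0.024 and 1.09 without 1 animal, the lowest without NDMA animal 1; it was at 2.16 with the slide as a fixed block and on slide 1 alone and at 0.17 with normexp and the 75th percentile.

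Over all probes the count, 1289, was 488 with no filter, 82 with the slide as a fixed block, 0 on slide 1 alone (4667 at an unadjusted p under 0.05 in limma), 511 with the replicate block, and 464 to 987 without 1 animal. The replicate block changed no call of a member and ended that of Lrp2; it gave 7 S-phase and 5 mitosis probes. S-phase calls, 14, were 4 with no filter, 0 with either slide setting (fixed block or slide 1 alone), 7 with the brightest probe per gene, and 3 to 12 without 1 animal, lowest without control 1. Mitosis calls, 12, were 4 with no filter, 0 with either slide setting, and 2 to 11 without 1 animal, lowest without control 1. Leukocyte calls, 20, were 13 with no filter, 0 with either slide setting, 12 with the brightest probe per gene, and 11 to 18 without 1 animal, lowest without control 1. The brightest-probe and slide 1 settings test fewer probes or animals; otherwise the cause was not tested. Normexp on the mean signal was not run, because the median signal was used instead, a choice made after seeing the data. With normexp and the 75th percentile 943 of 1459 calls were higher, and with a trended and robust variance 1271 of 1716, against 1080 of 1289. Signal over background limits the dimmest probes, Exo1 A_64_P085102 and Pms2 A_44_P556146.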

Other observations

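Exo1 probe A_64_P085102 and Msh5 probe A_43_P19334 were both dim and both high in NDMA animal 1 only, which was seen after their values were examined. A count over the tested probes without missing values gave how often 1 animal exceeded the other 5 by more than 1 on the log2 scale. Among 8072 dim probes, those with a mean over all 6 animals below -4, this was so for 87 in NDMA animal 1 (1.08%), against 25, 20 and 40 in controls 1, 2 and 3 and 24 and 8 in NDMA animals 2 and 3. Over all 43100 probes the counts were 142 in NDMA animal 1, 97, 30 and 63 in the controls and 69 and 16 in NDMA animals 2 and 3. What these probes share was not tested.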
